A study of Drosophila melanogaster with 3 samples.

Results

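The genes described here are 10 components of the Dpp/BMP pathway of Drosophila melanogaster: the ligands dpp and gbb, the receptors tkv, sax and put, the Smad proteins Mad, Med and Dad, and the nuclear regulators brk and shn. They were chosen by name among 13962 protein-coding genes that RefSeq lists for Release 6 of the genome. Earlier results of these data were known when they were chosen, so an excess over all genes is descriptive only. ChIP-seq peaks were listed for SMARCAD1 (ASNA, the Etl1 product), an ATP-dependent remodeler of the Snf2 family, and for CBP (the nej product), a histone acetyltransferase. Both libraries came from S2 cells, a cultured embryonic line with features of blood cells, and each used a custom-made antibody. All cells, also those of an input DNA library that was not analysed here, had received dsRNA of EGFP, a nonspecific control, for 6 h at 26 °C and were then cultured for 72 h. The design compares where the 2 proteins were bound in a single cell type.

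In the BMP pathway, a secreted dimer of Dpp or Gbb binds a complex of the type I receptors Tkv or Sax with the type II receptor Put. The activated receptor phosphorylates Mad, which enters the nucleus with Med. There the complex recruits CBP to activate genes, or Shn to repress them, and brk, which encodes a repressor of Dpp targets, is itself silenced through Mad, Med and Shn. Dad, whose gene is induced by the pathway, inhibits signaling in return.

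Entries of the tables named 9 of the 10 genes with at least 1 peak, beside 39.2% of all protein-coding genes, and tkv was the exception. The SMARCAD1 table named 7 of them, gbb, sax, put, Med, Dad, brk and shn, beside 28.2% of all protein-coding genes. The CBP table named 8, dpp, gbb, sax, put, Mad, Med, brk and shn, beside 31.1% of all protein-coding genes. Both tables named 6 of the 10 genes, gbb, sax, put, Med, brk and shn, beside 20.1% of all protein-coding genes. Dad was named with SMARCAD1 alone, as were 8.10% of all genes, and dpp and Mad were named with CBP alone, as were 11.0%. The 10 genes are longer than most, with a median length in RefSeq of 10131 bp against 2160 bp over all protein-coding genes. Among the 1954 genes of at least 10131 bp, the shares were 36.1% for SMARCAD1, 40.7% for CBP and 29.2% for both. At least 1 table named 47.6% of them. Of the 10 genes, dpp, tkv, Mad, Dad and shn alone are that long. Among these, SMARCAD1 named Dad and shn, CBP named dpp, Mad and shn, and both named shn alone. The counts of the 10 genes are thus not matched to these shares by length, and an influence of length was not tested. There was 1 library per antibody and hence no replicate for any value. The values therefore describe these libraries and were not tested against each other. The tables hold no read counts either, so a missing peak cannot be told from one below the detection limit.

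**Figure D1:**
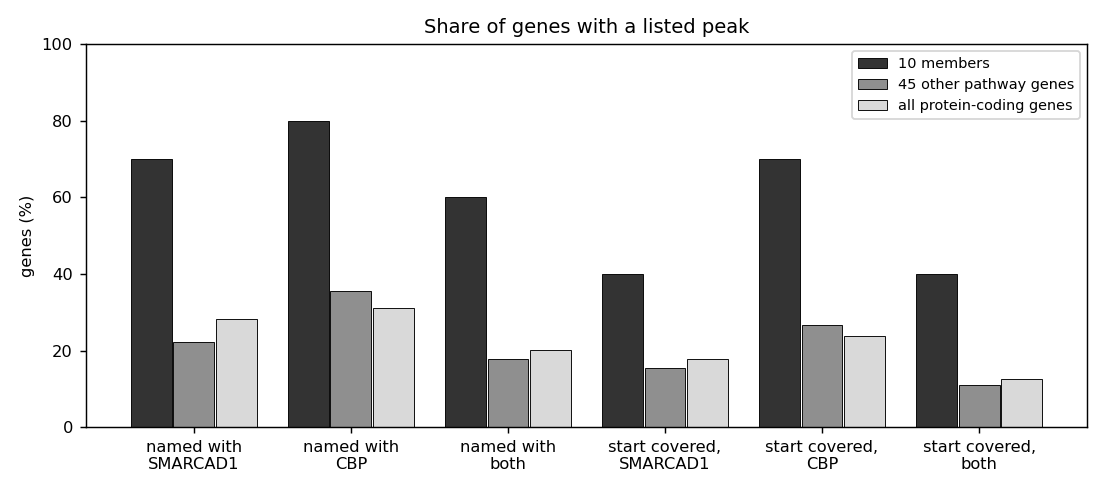
Share of genes (%) named with a peak, and share of genes whose start a peak covered, for the 10 pathway genes, 45 other genes of the BMP and activin pathways and all protein-coding genes. The 10 genes stand above all protein-coding genes in all 6 groups of bars, while the 45 other genes lie near them. Both lists were chosen with earlier results of these data known. The 10 genes are longer than most and were not matched by length, so the difference was not tested.

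In all, 15 of 3211 SMARCAD1 peaks and 12 of 3762 CBP peaks were listed with the 10 genes. The position of a peak is given as the distance from the gene start (TSS) to the centre of the peak, negative upstream, and its class is that assigned by the authors with ChIPpeakAnno. A gene has a single start in the tables, although several of these genes, such as dpp, are known to use alternative promoters. Coordinates are those of the tables and should not be looked up in Release 6 (dm6), although the methods name it. Of the 9 genes with a position, 0 began or ended where Release 6 places them. Which build the positions follow was not established. Exons and introns could not be assigned for the same reason.

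**Figure D2:**
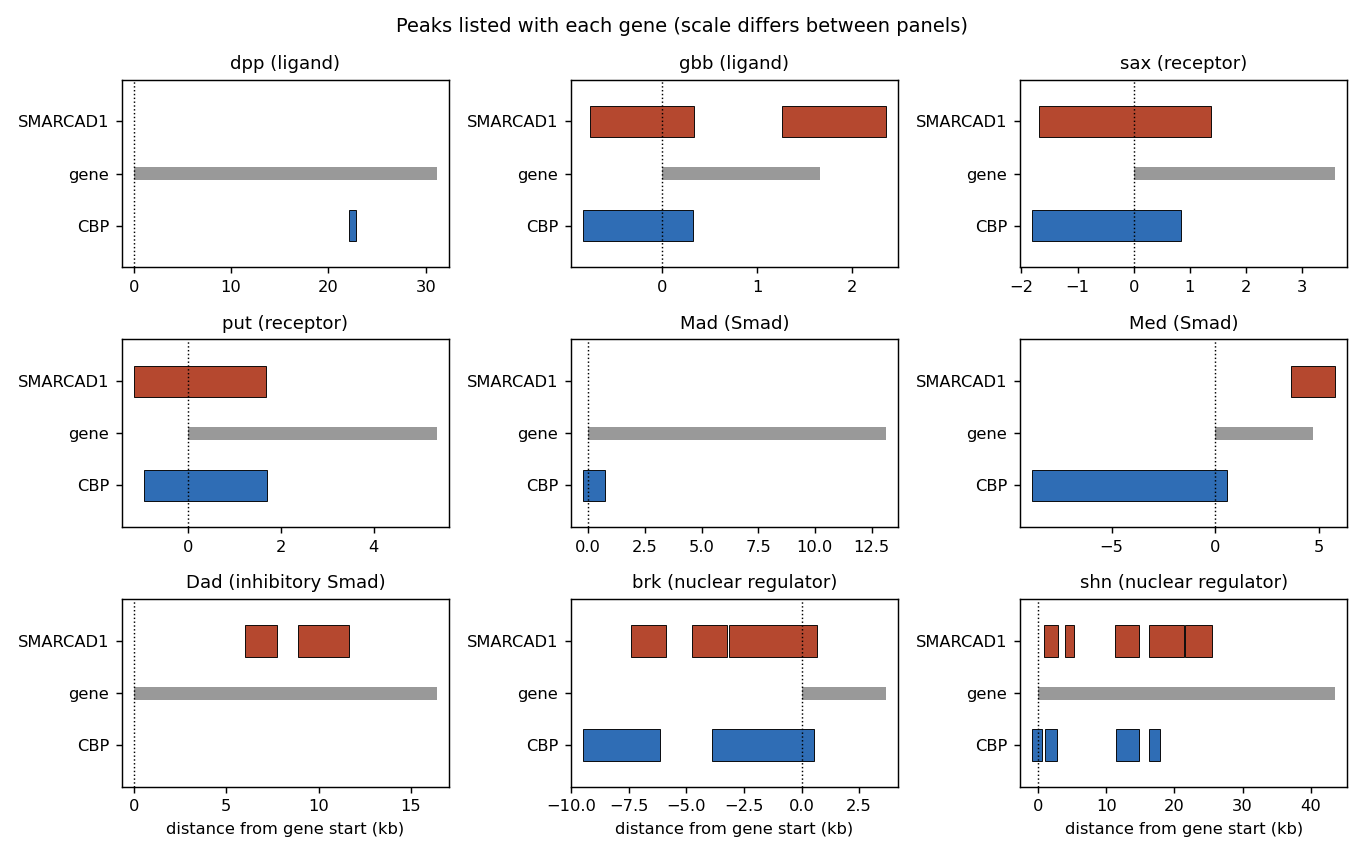
Peaks listed with each of 9 genes, drawn to scale along the distance from the gene start in kb (dotted line, gene direction to the right), with SMARCAD1 peaks above the grey gene and CBP peaks below it. The peaks of gbb, sax and put coincide at the start, those of Med lie at opposite ends of the gene, and those of brk reach upstream while those of shn reach into the gene. The gene tkv had no peak and is not drawn.

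The ligand genes differed from each other. At gbb, which encodes a ligand of the BMP5/6/7/8 type and lies on 2R, the start was covered by a SMARCAD1 peak of 1097 bp at -220 bp (chr2R:19738338-19739434) and by a CBP peak of 1167 bp at -258 bp (chr2R:19738265-19739431). The peaks shared 1094 bp, which is 99.7% of the SMARCAD1 peak and 93.7% of the CBP peak. This was the closest match of outlines among the start-covering pairs, with edges 73 and 3 bp apart. The same peaks covered the start of ytr, the neighbor in the opposite orientation. The annotation gave the TSS of ytr as the nearest one for both antibodies. Measured from the centre, ytr was nearer to the CBP peak (-229 bp), but gbb was nearer to the SMARCAD1 peak (ytr at -267 bp). The signal therefore cannot be assigned to gbb alone. A further SMARCAD1 peak of 1104 bp lay across the end of gbb, at 1812 bp (chr2R:19740367-19741470), and also overlapped the end of bgcn. It had no CBP counterpart, the nearest CBP peak being 936 bp away.

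At dpp, which encodes the BMP2/4-type ligand, no SMARCAD1 peak was listed. A single CBP peak of 771 bp lay inside the gene, 22471 bp from the listed start (chr2L:2450540-2451310), and the start itself was not covered. With a width at percentile 5.26 of all CBP peaks, it was the narrowest peak of the 10 genes. The nearest SMARCAD1 peak was 69032 bp away, the largest such gap among the 10 genes.

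The receptor genes sax and put each had 1 peak of either antibody, and in all 4 cases the peak covered the start. At sax, a type I receptor gene, the SMARCAD1 peak was 3071 bp wide at -157 bp (chr2R:3692291-3695361), and the CBP peak was 2663 bp wide at -481 bp (chr2R:3692171-3694833). They shared 2543 bp, or 82.8% of the SMARCAD1 peak and 95.5% of the CBP peak. The start of CG1553, on the other strand, lay under both peaks and was their nearest TSS. At put, the gene of the type II receptor, the SMARCAD1 peak was 2861 bp wide at 252 bp (chr3R:10449739-10452599), and the CBP peak was 2668 bp wide at 373 bp (chr3R:10449715-10452382). Of these, 2644 bp were shared, 92.4% of the SMARCAD1 peak and 99.1% of the CBP peak. Both peaks contained the whole of His4r, which encodes a replacement histone H4, on the opposite strand. The start of put was the nearest TSS, but put and His4r cannot be separated in these peaks. Both receptor genes thus shared wide start-covering peaks with a neighboring gene.

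The third receptor gene, tkv, which encodes the main type I receptor for Dpp, was named in neither table. In the gene order of Release 6, 5 protein-coding genes before tkv and 3 after it had no entry either. The first named genes were Msp300 before it, with 3 SMARCAD1 and 3 CBP peaks inside that gene, and Nin after it, with 0 SMARCAD1 peaks and 1 CBP peak over its start. The tables give no position for tkv, so the distance from it to these peaks was not computed.

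For Mad and Med, no SMARCAD1 peak was found at the gene start, while a CBP peak was. No SMARCAD1 peak was named with Mad, the gene of the receptor-activated Smad to which CBP serves as coactivator, whereas its start lay under a CBP peak of 960 bp at 240 bp (chr2L:3158911-3159870). The nearest SMARCAD1 peak was 9228 bp from this CBP peak. At Med, the gene of the common-mediator Smad, both antibodies had a peak, but at opposite ends. The SMARCAD1 peak of 2148 bp lay across the gene end at 4732 bp (chr3R:27440428-27442575), contained the whole of CG11539 and covered the start of CG1792. The CBP peak of 9436 bp covered the start of Med and was centred at -4126 bp (chr3R:27427926-27437361). This CBP peak was the widest of all 27 peaks of the 10 genes, at percentile 99.7 of all CBP peaks. It lay wholly within CycG, a neighbor on the other strand that overlaps Med in the tables, and covered 592 bp of Med. The peaks were 3067 bp apart, and they had no base in common. Med therefore counted as shared when genes were compared and as unshared when positions were.

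Dad showed the reverse of Mad and dpp. This gene of the inhibitory Smad, a well-known target of Dpp signaling, was named with SMARCAD1 peaks of 1705 bp at 6885 bp (chr3R:12885762-12887466) and of 2712 bp at 10269 bp (chr3R:12888643-12891354), and with no CBP peak. Both lay inside the gene and covered 26.9% of its 16407 bp, while the start was free of peaks. For the second of them, the nearest TSS was that of mRpS11. The nearest CBP peaks were 16101 and 12388 bp away from the SMARCAD1 peaks. Dad was the sole gene among the 10 with SMARCAD1 and without CBP.

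The nuclear regulators brk and shn held 8 of the 15 SMARCAD1 peaks and 6 of the 12 CBP peaks. At brk, whose product represses Dpp targets and which lies on X, all 5 peaks lay over or upstream of the start. The SMARCAD1 peaks were 1510 bp wide at -6642 bp (chrX:7194577-7196086), 1533 bp wide at -4000 bp (chrX:7197208-7198740) and 3823 bp wide at -1245 bp (chrX:7198818-7202640). The CBP peaks were 3339 bp wide at -7825 bp (chrX:7192480-7195818) and 4423 bp wide at -1663 bp (chrX:7198100-7202522). The last of each covered the start. All 5 overlapped a peak of the other antibody, and for all 5 the TSS of brk was the nearest one.

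At brk the CBP peaks reached farther upstream. The start-covering peaks shared 3705 bp, which is 96.9% of the SMARCAD1 peak and 83.8% of the CBP peak. This CBP peak also overlapped 641 bp of the SMARCAD1 peak at -4000 bp, 41.8% of that peak, so that 1 CBP peak faced 2 SMARCAD1 peaks. The distal pair shared 1242 bp, or 82.3% of the SMARCAD1 peak but 37.2% of the CBP peak. Summed over brk, the peaks measured 6866 bp for SMARCAD1 and 7762 bp for CBP, although SMARCAD1 had the larger number. Of the 10 genes, 4 (gbb, Dad, brk and shn) were named with 2 or more SMARCAD1 peaks, beside 7.09% of all protein-coding genes. With 3 or more SMARCAD1 peaks there were 2 (brk and shn), beside 1.65%, and with 2 or more CBP peaks the same 2, beside 7.68%. These shares are of genes of any length and were not computed for long genes alone. An influence of length on the number of peaks was not tested.

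The gene with the most peaks was shn, which encodes a zinc-finger protein that binds Mad and Med and silences brk. It is also the longest of the 9 genes with a position, at 43594 bp. All 5 SMARCAD1 peaks lay inside the gene. Nearest to the start were peaks of 2152 bp at 1913 bp (chr2R:7062163-7064314) and 1216 bp at 4629 bp (chr2R:7065347-7066562). Farther in lay wider peaks, of 3599 bp at 13081 bp (chr2R:7072607-7076205), 5134 bp at 18839 bp (chr2R:7077597-7082730) and 4000 bp at 23525 bp (chr2R:7082851-7086850). Of the 4 CBP peaks, 1 covered the start, 1477 bp wide at -143 bp (chr2R:7060444-7061920). The other 3 lay inside, 1810 bp wide at 1871 bp (chr2R:7062291-7064100), 3399 bp at 13088 bp (chr2R:7072714-7076112) and 1594 bp at 17027 bp (chr2R:7077555-7079148). Each of the 3 CBP peaks inside shn was matched by a SMARCAD1 peak. Genes with 5 or more SMARCAD1 peaks made up 0.222% of all protein-coding genes, and those with 4 or more CBP peaks 0.924%. These shares too are of genes of any length, most of them far shorter than shn.

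The matches within shn ranged from close to partial. The SMARCAD1 peak at 13081 bp contained the whole CBP peak at 13088 bp, and their centres were 7 bp apart, the smallest difference among all pairs of the 10 genes. Likewise, the SMARCAD1 peak at 1913 bp contained the CBP peak at 1871 bp, with centres 43 bp apart. The SMARCAD1 peak at 18839 bp began 42 bp from the CBP peak at 17027 bp but ended 3582 bp beyond it, so 30.2% of this SMARCAD1 peak and 97.4% of the CBP peak were shared. Without a counterpart were the SMARCAD1 peaks at 4629 and 23525 bp, 1247 and 3703 bp from the nearest CBP peak, and the CBP peak over the start, 243 bp from the nearest SMARCAD1 peak. SMARCAD1 peaks covered 36.9% of shn (16101 bp) and CBP peaks 17.0% (7399 bp), with 6761 bp under both. At shn, then, SMARCAD1 extended farther into the gene, and the start was covered by CBP alone.

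**Figure D3:**
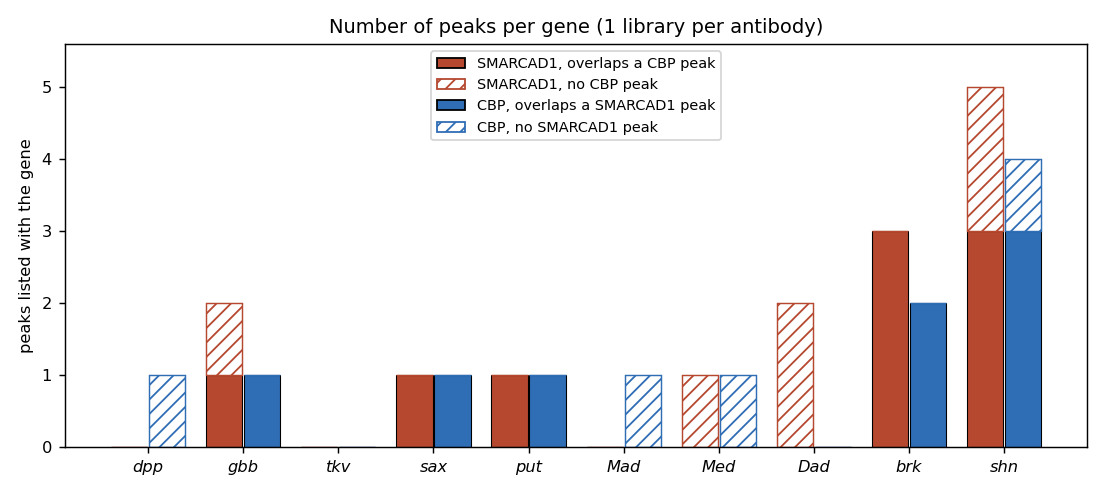
Number of peaks listed with each gene, SMARCAD1 to the left of CBP, with filled parts for peaks that overlap the other antibody by at least 1 bp and hatched parts for those that do not. All peaks of sax, put and brk are shared, and none of dpp, Mad, Med or Dad. At shn, 3 of 5 SMARCAD1 and 3 of 4 CBP peaks are shared.

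Across the 10 genes, CBP covered more starts. The start lay under a SMARCAD1 peak at 4 genes, gbb, sax, put and brk, beside 17.8% of all protein-coding genes. Under a CBP peak it lay at 7 genes, the same 4 with Mad, Med and shn, beside 23.9% of all genes. Peaks of both antibodies thus covered 4 starts, beside 12.5% of all genes. The contrast depended on the rule. With a peak centre within 1000 bp of the TSS, the genes numbered 3 for SMARCAD1, 5 for CBP and 3 for both. Within 2000 bp they numbered 5, 6 and 5. Among genes of at least 10131 bp, the shares with a covered start were 16.6% for SMARCAD1, 25.6% for CBP and 12.3% for both. Of the pathway genes that long (dpp, tkv, Mad, Dad and shn), none had its start under a SMARCAD1 peak. Mad and shn had it under a CBP peak. By class, the 15 SMARCAD1 entries were 7 Inside, 4 OverlapStart, 2 OverlapEnd and 2 Upstream, and all 7 Inside entries belonged to Dad and shn. The 12 CBP entries were 7 OverlapStart, 4 Inside and 1 Upstream. Over 5749 SMARCAD1 and 6418 CBP entries in the tables, OverlapStart made up 39.9% and 50.5%. Inside made up 17.5% of these SMARCAD1 entries and 18.6% of these CBP entries. When each peak was counted for its nearest TSS alone, SMARCAD1 named 5 of the 10 genes, CBP 5 and both 3, beside 17.1%, 19.8% and 11.2% of all protein-coding genes by that rule. SMARCAD1 then lost sax and Med, and CBP lost dpp, gbb and sax, whose peaks lay nearer to the start of another gene.

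The shares of overlapping peaks were close to those of all peaks. Of the SMARCAD1 peaks of the 10 genes, 9 of 15 overlapped a CBP peak (60.0%, exact Clopper-Pearson 95% interval 32.3 to 83.7%, counting error only), against 58.9% of all SMARCAD1 peaks. Of the CBP peaks, 8 of 12 overlapped a SMARCAD1 peak (66.7%, 34.9 to 90.1%), against 52.7% of all CBP peaks. Peaks of 1 gene are not independent, and all of those shared lay at 5 genes: gbb, sax, put, brk and shn. With centres required to lie within 200 bp of each other, 4 SMARCAD1 peaks (26.7%) and 4 CBP peaks (33.3%) were shared, beside 36.5% of all SMARCAD1 peaks and 31.1% of all CBP peaks. These were the peaks over the starts of gbb and put and the first and second matched pairs inside shn.

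Within the 9 overlapping pairs, the SMARCAD1 peak was the wider one in 5 (55.6%), against 85.5% of the 2024 overlapping pairs in the tables. The 4 exceptions were all 3 pairs of brk and that of gbb. The median difference between the centres was 324 bp, against 135.5 bp over all pairs. This count is small, and 3 of the 9 pairs came from brk.

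The widths of the peaks had a median of 2152 bp for SMARCAD1 (15 peaks, range 1097 to 5134 bp) and 2236.5 bp for CBP (12 peaks, range 771 to 9436 bp), against 1792 bp over all SMARCAD1 peaks and 1487 bp over all CBP peaks. Binomial 95% intervals of the medians, counting error only, were 1510 to 3599 bp for SMARCAD1 and 1167 to 3399 bp for CBP. Both include the medians of all peaks, but they treat the peaks as independent, which peaks of the same gene are not. A difference in width from all peaks was therefore not tested. Among the CBP peaks, the narrow ones of dpp and Mad had no SMARCAD1 counterpart, and neither did the widest, that of Med.

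**Figure D4:**
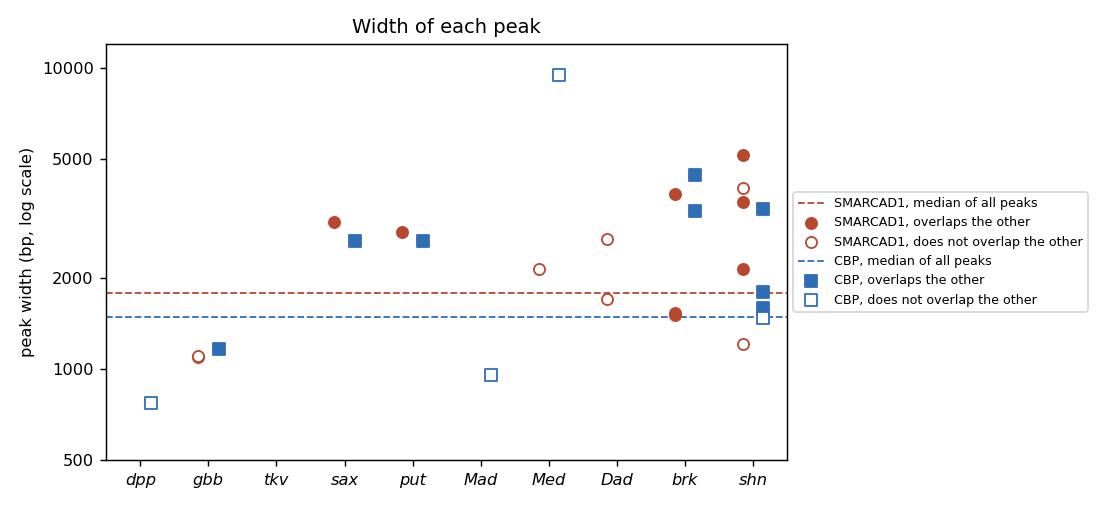
Width of each peak in bp on a log scale by gene, SMARCAD1 (circles) to the left of CBP (squares), filled where the peak overlaps the other antibody. Dashed lines mark the median of all peaks, 1792 bp for SMARCAD1 and 1487 bp for CBP. CBP peaks span 771 bp at dpp to 9436 bp at Med.

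The other genes of the BMP and activin branches were counted for comparison, 45 genes listed by role. SMARCAD1 named 10 (22.2%), CBP 16 (35.6%) and both 8 (17.8%), which is near the shares of all protein-coding genes given above. Of 18 target genes of Dpp signaling in embryos or imaginal discs, 2 were named, tin and ush, beside 39.2% of all protein-coding genes named in at least 1 table. The other 16, bi, salm, salr, vg, Ubx, lab, zen, pnr, tup, bam, Doc1, Doc2, Doc3, Dll, Ance and peb, had no entry. Dad and brk, also regulated by the pathway and named with peaks, belong to the 10 genes and were not counted among these targets. No peak was named with the receptor genes wit and babo, and of 5 further ligands only daw had an entry, with CBP. The components named in both tables were Smox, Smurf, Snoo, nej, sog, cv, srw and ush.

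Among the intracellular components, Smox, the receptor-activated Smad of the activin branch, resembled gbb. Its start was covered by a SMARCAD1 peak of 965 bp at -50 bp and a CBP peak of 927 bp at -18 bp, which overlapped, and a second SMARCAD1 peak lay across its end at 3922 bp. Smurf, a ubiquitin ligase that targets Mad (listed as lack), had overlapping peaks over its start, 5957 bp wide for SMARCAD1 and 2110 bp for CBP, and again inside the gene. At Snoo, of the Ski/Sno family, the single SMARCAD1 peak lay far inside, at 70246 bp. CBP had 3 peaks inside Snoo, at 22729, 69289 and 70840 bp, and those at 69289 and 70840 bp overlapped the SMARCAD1 peak. The CBP gene nej was named through a gene model that RefSeq gives as its synonym (CG15321), with overlapping peaks upstream of it, at -2118 bp for SMARCAD1 and at -1913 bp for CBP. Both distances run from the start of CG15321, which may have been a gene of its own in the annotation used, so it is uncertain whether these peaks belong to nej.

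Among the extracellular components, sog, which encodes a BMP antagonist, had peaks of both antibodies that did not overlap, the SMARCAD1 peak over its start at 97 bp and the CBP peak inside at 5825 bp. The start of cv, a BMP-binding modulator, was covered by a SMARCAD1 peak of 1247 bp at -318 bp and an overlapping CBP peak of 830 bp at -397 bp. A second SMARCAD1 peak inside cv, at 1477 bp, overlapped no CBP peak. The whole of srw (listed as CG11582) lay within a SMARCAD1 peak of 1781 bp and within an overlapping CBP peak of 1920 bp. Named with CBP alone were cv-2, dally, magu, Fur1 and Fur2, and each of these had its start covered. The glypican gene dlp was named with SMARCAD1 alone, over its start. The genes of the corepressors of Brk were divided, gro with SMARCAD1 alone and CtBP with CBP alone.

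The target gene ush, which encodes a GATA cofactor, had the most peaks of the 45 genes, 4 of either antibody. SMARCAD1 peaks lay at -20534, 569, 5359 and 17403 bp, and CBP peaks at -21366, -17560, 618 and 17405 bp. At 3 of these positions, far upstream, over the start and over the end, the antibodies overlapped. Thus ush had shared peaks at several positions, as had brk and shn, whereas tin had no SMARCAD1 peak and a CBP peak over its start.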

How the data were processed

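Reads had been aligned by the authors with BWA. Peaks were then called per library against a control (MACS) and annotated with ChIPpeakAnno. The deposited values, 5859 entries for SMARCAD1 and 6495 for CBP, are positions, widths and distances in bp. They hold no read counts, scores or P values, so depth is unknown. Weak or false calls therefore cannot be told from strong peaks. A peak has an entry for the nearest TSS, as flagged by the annotation, and for other genes it overlaps or adjoins. Entries were used whether or not they were for the nearest TSS. The shares by class were taken over 5749 SMARCAD1 and 6418 CBP entries. Groups were taken from the sample labels. Gene names were matched to RefSeq (Release 6) by symbol or by a synonym of 1 gene alone (5865 of 6016 names). The 10 genes and the pathway lists were chosen with earlier results of these data known. All 10 genes are described. Of the 45 others, those with an entry of both antibodies or 3 or more peaks are given with values. Overlap was counted from 1 bp. The overlap step was tested on simulated peaks. Python 3.11.15, numpy 2.4.6, pandas 2.3.3, scipy 1.17.1 and matplotlib 3.10.9 were used. With 1 library per antibody, no test was made and no P value computed. A planned search of promoter sequences was not run, as no sequences were used here. Alternatives were nearest-TSS entries, peaks of at least 1000 bp, peaks within 5 kb, other TSS windows, other definitions of overlap and other background genes.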

Additional observations from a re-analysis of the deposited data

How the results depend on the processing

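In all, 21 values were recomputed under 55 alternatives, and 33 stayed within 1.5 times a count or within the 95% interval of a share or median. With the nearest-TSS entry alone, CBP named 5 of the 10 genes, both antibodies 3 and neither 3. Of the 45 other pathway genes, SMARCAD1 then named 5, CBP 9 and both 4, and of all protein-coding genes 17.1%, 19.8% and 11.2% were named with SMARCAD1, CBP and both. With peaks of at least 1000 bp, 3 of the 10 genes had neither antibody, since the peaks of dpp and Mad were narrower. With centres within 200 bp, 26.7% of SMARCAD1 and 33.3% of CBP peaks were shared, beside 36.5% and 31.1% of all peaks. With all genes of RefSeq as background, the shares were 23.5% for SMARCAD1, 25.6% for CBP and 16.5% for both. Among genes at least as long as the shortest of the 10, they were 33.8%, 37.1% and 24.9%, and among those at least as long as their median, 36.1%, 40.7% and 29.2%. Both length limits, and symbols alone without synonyms, which left 5 pathway genes with both antibodies, were chosen after seeing the data. Apart from the changes that follow from fewer entries or other gene sets, the cause was not tested. No paired analysis was possible because there was 1 library for each antibody. The unknown depth limits every statement on a missing peak.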

Other observations

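The surroundings of the 9 genes with a position were not part of the comparisons above. Within 15 kb of dpp and of put, 0 further SMARCAD1 and 0 further CBP peaks were listed, so their peaks stood alone. The start-covering peaks of gbb lay in a denser stretch, with 4 further SMARCAD1 and 5 further CBP peaks within 15 kb, of which 3 of either antibody overlapped the other. At sax there were 3 further peaks of either antibody, with 2 of each overlapping the other. Around Dad, 4 further SMARCAD1 and 3 further CBP peaks were listed within 15 kb, so CBP peaks were called near Dad although none was named with it, the nearest 7607 bp from the gene. Around Mad, 2 further SMARCAD1 peaks were listed, the nearest 9468 bp from the gene, and 1 further CBP peak, 1056 bp from it. Around brk, 2 further SMARCAD1 peaks were listed within 15 kb, the nearest 9319 bp from the gene, and 1 further CBP peak, 11652 bp from it.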
